A study of Homo sapiens with 18 samples.

Results

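The genes described here lie in 1 run on the long arm of chromosome 13, from MAB21L1 to RBM26-AS1, that was picked out because its signals were low in the HEK line B21. Of 142 genes with a symbol in that interval, 30 were left out by their names (non-coding, small RNA, solute carrier, protocadherin, ZNF and ribosomal protein symbols). Of the 112 kept, 37 did not exceed 5.6 (log2 signal) on at least 3 of the 18 arrays. That left 75 members of the 9686 genes tested over the whole array. B21 minus parental values chose the run, so B21 values of its members are given below as a description, with no test.

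HEK is an established line of human embryonic kidney cells. The series holds 6 HEK lines with 3 cultures, and so 3 arrays, each. Parental HEK cells and 2 CRISPR control lines, N4 and N8, are labelled ATXN1L wild type, and the lines A10, A30 and B21 are labelled ATXN1L-KO. ATXN1L encodes a partner protein of the transcriptional repressor CIC. The labels state CRISPR treatment, puromycin and growth from single colonies for every sample, the parental ones included. A line is therefore 1 clone or population, and differences between lines cover the spread between cultures, not between independent clones of a genotype.

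Affymetrix Expression Console values were used on the log2 scale, so that a difference is the log2 of a ratio of signals. Array medians ran from 5.09 to 5.18 over all probe sets. Of 12 genes on a kidney and HEK marker list, 9 were measured and all 9 passed the filter, with line means of the list between 7.29 and 7.49. PAX2, 1 of these, exceeded the filter value on 4 arrays only. Of the measured markers of other cell types, 0 of 4 keratinocyte and 0 of 3 endothelial genes passed. However, 2 of 3 fibroblast, 2 of 3 hepatocyte and 1 of 3 leukocyte genes also passed, the leukocyte gene CD68 on all 18 arrays. Passing the filter was thus not particular to the kidney and HEK list. The ATXN1L signal ran from 7.05 to 7.29 over the wild-type arrays and from 7.20 to 7.61 over the KO-labelled arrays, and the labels do not say which part of ATXN1L was edited, so the signal does not check them. Replicate 1 of A10 was unlike its own line: with each gene's mean removed it correlated at 0.0141 and 0.135 with the other A10 arrays and at 0.395 with replicate 1 of N4, across genes. The first replicates of parental and N4 also correlated more with each other (0.415) than with their own lines (0.338 to 0.372).

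Genes of a chromosome segment often have unrelated functions, and their RNA levels are usually set gene by gene by promoters and enhancers. The number of copies of a segment acts on all genes in it, so long runs of neighbouring genes that shift together are a known feature of cell lines with altered chromosomes. HEK cells are known for an unstable, rearranged karyotype, and single-cell clones of the line can differ in it. DNA was not measured here, and copy number was not tested. The best known gene of the run is RB1, the retinoblastoma gene, whose protein holds E2F transcription factors in check.

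Several members sit head to head, with their starts on opposite strands a short way apart, and share 1 promoter stretch. There were 7 such pairs with under 1000 bases between the starts. The stretches of 3 pairs are shown as examples. In all 7 pairs both genes had a mean below parental in B21, and in these 3, chosen after their values were seen, both lay at −0.35 or lower. They come from RefSeq on GRCh38.p14, plus strand, 5′ to 3′, in lower case, and run from the base after 1 start to the base before the other. PROSER1-NHLRC3 is chr13:39038090-39038310 (221 bases), DIS3-PIBF1 is chr13:72781901-72782132 (232 bases) and COMMD6-UCHL3 is chr13:75549440-75549501 (62 bases). Capitals mark the only match to the motifs searched.
PROSER1-NHLRC3: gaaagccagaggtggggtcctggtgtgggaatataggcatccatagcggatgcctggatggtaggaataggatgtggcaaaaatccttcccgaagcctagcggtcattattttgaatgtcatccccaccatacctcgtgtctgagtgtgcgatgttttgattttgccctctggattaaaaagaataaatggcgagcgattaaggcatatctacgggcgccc
DIS3-PIBF1: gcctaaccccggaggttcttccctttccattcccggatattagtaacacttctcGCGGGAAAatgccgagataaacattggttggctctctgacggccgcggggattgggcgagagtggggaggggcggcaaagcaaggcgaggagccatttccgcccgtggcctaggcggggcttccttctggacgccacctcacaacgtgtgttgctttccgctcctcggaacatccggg
COMMD6-UCHL3: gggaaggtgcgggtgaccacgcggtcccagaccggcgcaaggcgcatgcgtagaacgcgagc

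PROSER1, a proline- and serine-rich protein gene, and NHLRC3 across the stretch lay −0.54 and −0.71 from parental in B21. DIS3, the catalytic subunit of the RNA exosome, and PIBF1, a centrosomal protein gene, lay −0.47 and −0.75 away. COMMD6 and the ubiquitin hydrolase gene UCHL3 lay −0.35 and −0.46 away. In another pair, DIAPH3, a formin gene, and DIAPH3-AS1 lay at −0.02 and −0.13, near the parental level on both sides.

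The 250 bases before the start were searched on both strands in 69 of the 75 members that matched a RefSeq promoter. A gene was counted once if any of its starts had a match, and the number of starts searched per gene was not made equal. The CIC octamer TGAATGAA was found for 0 of 69 members, against 1.72% of all genes with a promoter. TGAATGGA was found for 1, LMO7 (1.45% against 1.05% of all). The E2F-type motif TTTCCCGC was in 3 (4.35% against 1.7%): DIS3 and PIBF1, which share the match marked above as GCGGGAAA, and NHLRC3, whose match lies outside the stretch shown. The second E2F-type motif, TTTGGCGC, was found for 1 (1.45% against 0.681%), CDADC1. Taken over single starts, the median GC content of these windows was 60.8% for the members (101 starts) and 58.0% for all genes (35116 starts). A match describes letters in a window and is not a measured site.

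Over the 75 members the median difference of B21 from parental was −0.46 (quartiles −0.58 and −0.31), 0.727 times the parental signal for the median member, while the median over all 9686 genes was 0.01. Of the members, 68 had a B21 mean below the parental mean, against 48.6% of all genes. All 3 B21 arrays lay below all 3 parental arrays in 60 of 75 members (17% of all genes), and below all 15 arrays of the other lines in 24 (1.01% of all genes). A difference of −0.3 or lower was seen in 58 members (6.94% of all genes), of −0.5 or lower in 30 (2.18%) and of −0.7 or lower in 11 (0.805%). The run was chosen on this contrast, so nothing is read from these shares. In bulk RNA, fewer cells with a transcript and less transcript per cell cannot be told apart.

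**Figure D1:**
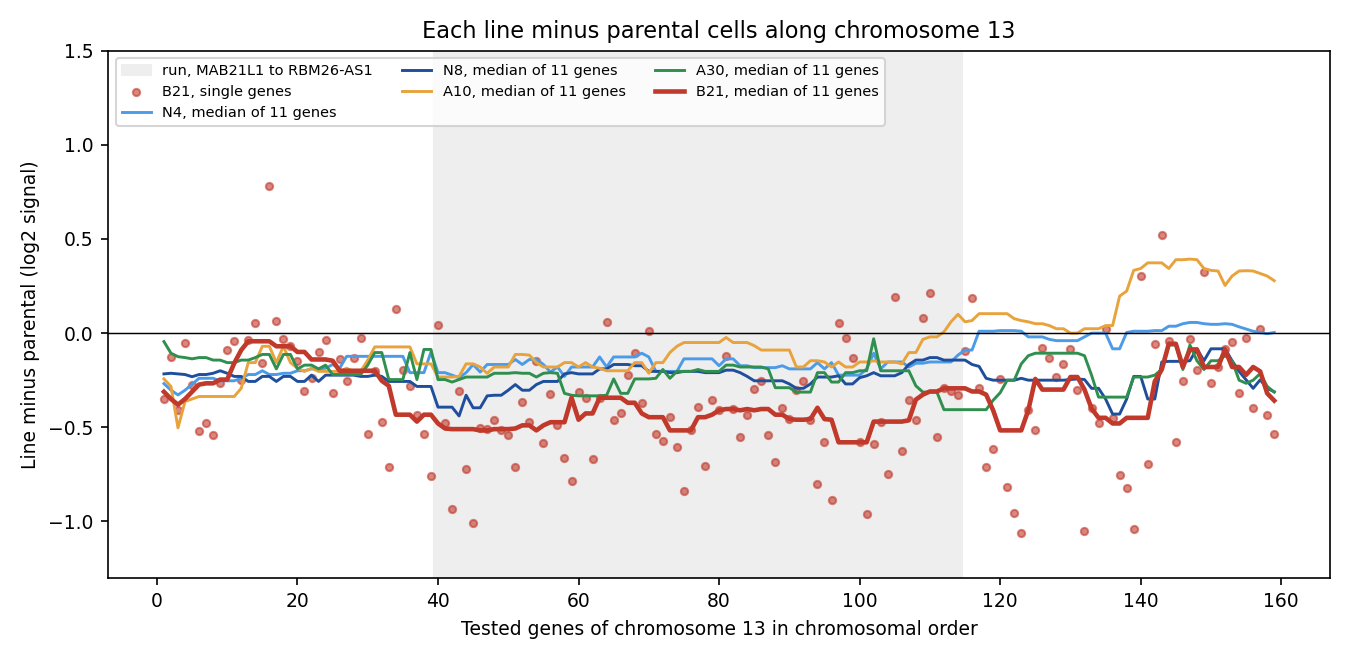
The x axis is the order of tested genes along chromosome 13 and the y axis the difference from parental (log2 signal). Points are single genes in B21, lines are medians over 11 neighbouring genes for each line, and the grey band is the run. The B21 line is low across the band, and it is also low beside both edges.

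Array by array, the run was placed by the median over members of the signal minus the gene's mean over 18 arrays. The B21 arrays lay at −0.27 to −0.21, below all other arrays. The parental arrays lay at 0.19 to 0.23, above all others. N4 ran from 0.01 to 0.06, N8 from −0.05 to −0.02, A30 from −0.12 to 0.02 and A10 from 0.02 to 0.16, the highest of which was replicate 1. Against the parental array of the same number, the B21 median was −0.44, −0.45 and −0.43 in replicates 1, 2 and 3. These B21 values were of a like size in the 3 cultures, whereas those of A10 were −0.02, −0.17 and −0.18. The run was chosen on the B21 and parental values. Nothing is therefore read from this likeness or from the places of the B21 and parental arrays.

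**Figure D2:**
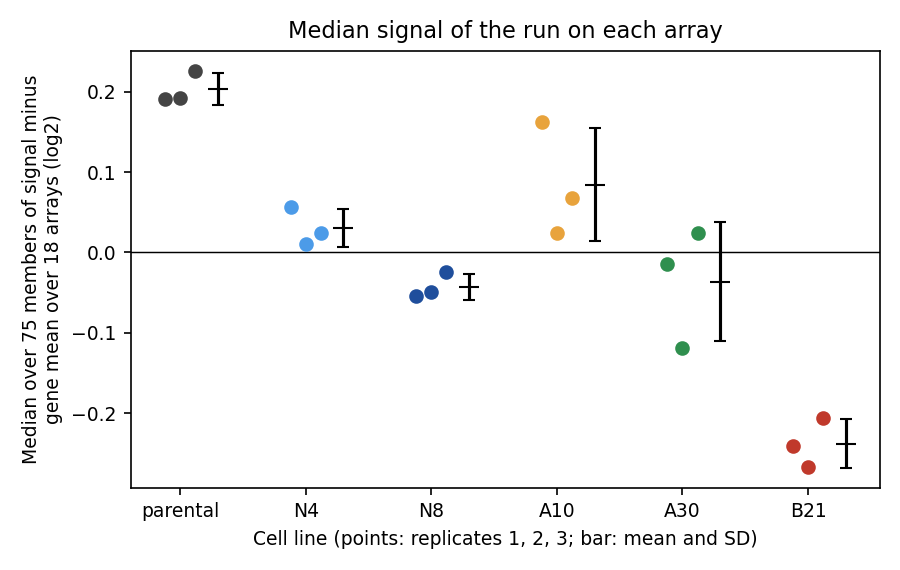
The y axis is the median over the 75 members of the log2 signal minus the gene mean over 18 arrays, with 1 point per array and the mean and SD of each line beside them. The 3 B21 arrays are lowest and the 3 parental arrays highest, with the other 4 lines in between.

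The parental cells were the highest of the 6 line means in 50 of 75 members (16.6% of all genes), and B21 was the lowest in 53 (13.1% of all genes). The choice of the run favours both counts, so nothing is read from them. A30 was lowest in 11 members, N8 in 6, A10 in 3 and N4 in 2. The size of the B21 difference depends on the reference. The B21 median was −0.27 against N4, −0.17 against N8 and −0.30 against the mean of the 3 wild-type lines. Against N4, 65 members had the lower mean in B21 (46.9% of all genes), and all 3 B21 arrays lay below all 3 N4 arrays in 46 (15.3% of all genes).

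RB1 was at 9.31, 9.44 and 9.35 in the parental cells, at 9.34, 9.16 and 9.19 in N4 and at 9.22, 9.09 and 9.16 in N8. It was at 9.47, 9.50 and 9.43 in A10, at 8.96, 8.92 and 9.02 in A30 and at 8.72, 8.64 and 8.62 in B21. B21 is the lowest on all 3 arrays and A30 the next, with no overlap between B21, A30 and the remaining lines, and A10 has the highest mean. The B21 mean of 8.66 ± 0.05 (SD, n = 3) against 9.37 ± 0.07 in the parental cells is a difference of −0.71, or 61.3% of the parental signal, and it was −0.57 from N4. In A30 RB1 fell by 0.40 ± 0.07 (SE) against parental (limma adjusted p = 0.000405) and by 0.26 ± 0.07 against N4 (limma adjusted p = 0.0089). The second of these did not pass without replicate 1 of N4 (limma adjusted p = 0.0506) or in replicates 2 and 3 alone (0.0539). In N8 RB1 fell by 0.21 ± 0.07 against parental (limma adjusted p = 0.0446), a call lost with no filter (0.0882), with quantile normalisation (0.0776), with equal array medians (0.0591) and in 11 of the 18 fits that left out 1 array, among them each parental array (adjusted p up to 0.155). In A10 RB1 rose by 0.24 ± 0.07 against N4 (limma adjusted p = 0.043), a call lost with no filter (0.0948), with quantile normalisation (0.0754) and in 10 of those 18 fits, among them each A10 array and replicate 3 of parental (adjusted p up to 0.171). The fall in A30 against parental passed in all 18 (adjusted p up to 0.00338).

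RCBTB2, an RCC1- and BTB-domain protein gene next to RB1, was at 5.91, 5.86 and 6.13 in the parental cells and at 5.56, 5.67 and 5.61 in B21. Its B21 arrays lay below all 15 others, which ran from 5.70 to 6.13. The difference was −0.35, and the B21 mean of 5.61 is at the filter value, a level at which signal and background were not separated. MAB21L1, the first gene of the run and a developmental gene of eye and neural tissue, was at 6.05, 5.90 and 5.85 in the parental cells and at 6.17, 5.86 and 5.90 in B21. The B21 and parental arrays of MAB21L1 overlap, with a difference of 0.04, so 1 of the 3 genes named as marking the run was not lowered in B21. RBM26-AS1, the last gene, was at 6.36, 6.58 and 6.45 against 6.07, 6.15 and 6.19, a difference of −0.33, but its B21 mean was 0.13 above that of N4.

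**Figure D3:**
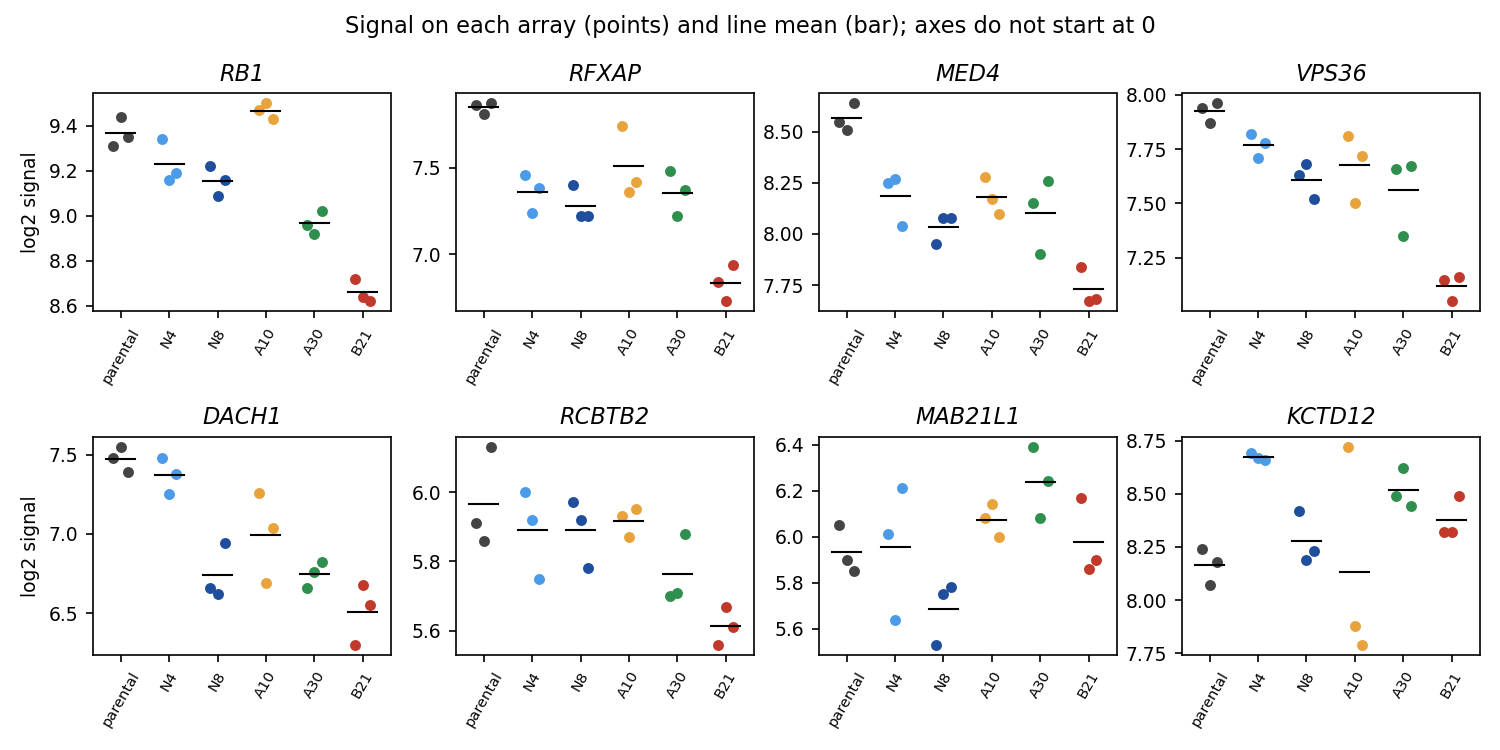
Each panel plots the log2 signal of 1 gene on each array (points) with the line mean (bar), over the 6 lines. B21 is lowest in RB1, RFXAP, MED4, VPS36 and RCBTB2 with no overlap, lowest by mean in DACH1, and not lowest in MAB21L1 or KCTD12.

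The 8 members lowest in B21 against parental came from all parts of the run. RFXAP, a subunit of the RFX complex that switches on MHC class II genes, was at 7.86, 7.81 and 7.87 in the parental cells, between 7.22 and 7.74 in N4, N8, A10 and A30, and at 6.84, 6.73 and 6.94 in B21. Its difference of −1.01 is 49.7% of the parental signal, but N4, N8, A10 and A30 were also below parental in RFXAP. The B21 difference from N4 was −0.52. DACH1, a transcriptional corepressor gene, was at 7.48, 7.55 and 7.39 in the parental cells and at 6.30, 6.68 and 6.55 in B21, a difference of −0.96. The DACH1 arrays of N8 (6.62 to 6.94) and A30 (6.66 to 6.82) overlap those of B21. CCDC169-SOHLH2, a readthrough of 2 neighbouring genes whose probe set can share exons with both, lay at −0.93, with all B21 arrays below 5.6. HNRNPA1L2, a retrocopy of HNRNPA1 whose probes may also bind that transcript, lay at −0.89.

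MED4, a Mediator subunit gene, was at 8.55, 8.51 and 8.64 in the parental cells and at 7.84, 7.67 and 7.68 in B21, a difference of −0.84. All 12 arrays of the remaining lines lay in between, from 7.90 to 8.28. VPS36, a subunit of the ESCRT-II sorting complex, was at 7.94, 7.87 and 7.96 against 7.15, 7.05 and 7.16, a difference of −0.80 (−0.65 against N4). KBTBD7, an adaptor of cullin 3 ubiquitin ligases, lay at −0.78 and PIBF1 at −0.75. Both MED4 and VPS36 separate B21 from every other array.

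A few members did not share the lowering. KCTD12, an auxiliary subunit of GABA-B receptors, was the highest at 0.21, from 8.24, 8.07 and 8.18 in the parental cells to 8.32, 8.32 and 8.49 in B21. It was the 1 member with all B21 arrays above all parental arrays (16.6% of all genes), but its B21 difference from N4 was −0.30. Its A10 arrays were at 8.72, 7.88 and 7.79, with replicate 1 nearer to N4 (8.66 to 8.69) than to its own line. KLF5, a Krüppel-like factor gene, lay at 0.19, LMO7 at 0.08, EPSTI1 at 0.06, PRR20A at 0.05, TPT1-AS1 at 0.01 and DIAPH3 at −0.02. PRR20A has 5 probe sets for near-identical gene copies, with differences of 0.05 in each, so its copies cannot be told apart.

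By role, the groups were written with results of these data known, and their counts are to be read beside the 60 of 75 members of the whole run and the 17% of all genes in which all B21 arrays lay below all parental arrays. Cell cycle and mitosis genes had 7 members of 10 listed, of which 5 had all B21 arrays below all parental arrays, with a median of −0.58. Beside RB1 and PIBF1 they include CKAP2, a spindle protein gene, at 9.45, 9.46 and 9.42 in the parental cells and 8.84, 8.88 and 8.87 in B21 (−0.58), and MZT1, a gamma-tubulin complex subunit gene, at −0.59. The kinase gene NEK3 lay at −0.46. RGCC and DIAPH3 were the 2 whose B21 arrays overlapped the parental ones. The B21 and parental arrays of CKAP2 did not overlap.

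Transcription and chromatin genes had 9 members of 14 listed, 7 without overlap and a median of −0.51. Beside MED4 and DACH1, the repressor gene KLF12 lay at −0.63, POU4F1 at −0.55, SMAD9, a BMP signal transducer, at −0.51, INTS6, an Integrator subunit gene, at −0.46 and ELF1 at −0.32. FOXO1, a transcription factor held back by insulin signalling, was at 7.34, 7.22 and 7.17 against 6.90, 7.17 and 7.22, with overlap and a difference of −0.15. FOXO1 and KLF5 were the 2 of this group whose B21 arrays overlapped or lay above parental.

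RNA processing genes had 8 members of 10 listed, and all 8 had every B21 array below every parental array, with a median of −0.50. ZC3H13, a component of the RNA m6A writer, was at 9.55, 9.64 and 9.79 against 9.08, 9.15 and 9.03 (−0.57). The splicing factor gene WBP4 lay at −0.49, TDRD3 at −0.58, the exosome genes EXOSC8 and DIS3 at −0.51 and −0.47, NUFIP1, which assists snoRNP assembly, at −0.37 and RBM26 at −0.31. RBM26 was lower in A30 than in B21, at −0.55.

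Genes of ubiquitin and related modifiers had 9 members of 14 listed, 8 without overlap and a median of −0.46. UFM1, the ubiquitin-fold modifier itself, lay at −0.46, the adaptor gene KBTBD6 at −0.66, the ligase gene TRIM13 at −0.54, RCBTB1 at −0.55 and OBI1, a ligase gene of replication origins, at −0.29. Trafficking and glycosylation genes had 9 members of 16 listed, 9 without overlap and a median of −0.39: COG3 and COG6, subunits of the Golgi COG complex, lay at −0.54 and −0.47, SPART at −0.31, ITM2B at −0.39, FNDC3A at −0.41, AKAP11 at −0.34, WDFY2 at −0.30 and the importin gene KPNA3 at −0.30. UCHL3 was the 1 gene of both groups whose B21 arrays overlapped the parental ones.

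Mitochondrial and metabolic genes had 7 members of 11 listed, 7 without overlap and a median of −0.43, from VWA8 (−0.67), ESD (−0.60) and MRPS31 (−0.58), a mitochondrial ribosome gene, to LACC1 (−0.22). Surface, matrix and signalling genes had 8 members of 24 listed, with 5 without overlap and a median of −0.41. FREM2, a basement membrane gene, lay at −0.52, the kinase gene DCLK1 at −0.48, ENOX1 at −0.46, LRCH1 at −0.45 and LHFPL6 at −0.36, while EPSTI1, LMO7 and KCTD12 lay slightly above parental. The choice of the run fixes the direction of these groups, so nothing is read from their counts. The brightest probe sets, of PROSER1, ITM2B, DIS3, ELF1 and ZC3H13, lay between −0.57 and −0.32.

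Of the members, 61 were above 5.6 on all 18 arrays, and 14 on 3 to 17 arrays, 5 of which had no B21 array above 5.6. Just inside the filter, with 3 arrays each, PRR20A and DIAPH3-AS1 lay at 0.05 and −0.13, and just outside it, with 2 arrays each, MRPS31P5 and CCDC70 lay at −0.60 and 0.07. The 37 genes below the filter had a median of 0.00, with 18 below parental in B21. Of the 30 genes left out by name, 5 passed the filter: PCDH9 at −0.54, MIR15A at −0.35, SLC25A15 at −0.32, PCDH17 at 0.02 and MIR16-1 at 0.15. ITM2B and EBPL each had a second, dimmer probe set, at −0.73 and −0.30, on the same side as the one used. The second probe set of RBM26-AS1 lay at −0.02, with a mean signal of 4.04, below the filter value.

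**Figure D4:**
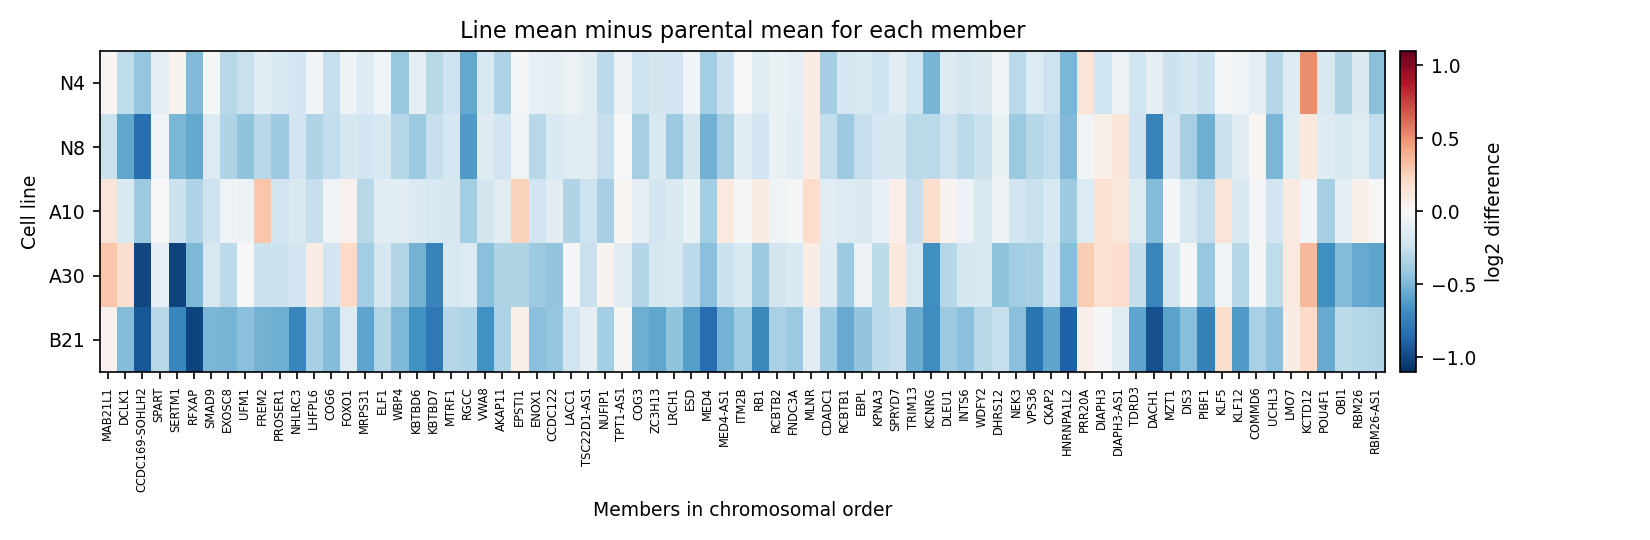
Columns are the 75 members in chromosomal order and rows are the 5 lines, and colour is the line mean minus the parental mean (log2), blue for lower. The B21 row is the darkest blue over most of the run, with pale columns at MAB21L1, EPSTI1, TPT1-AS1, PRR20A, DIAPH3, KLF5, LMO7 and KCTD12, and the other rows are also mostly blue.

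Within the run, the B21 medians of 5 successive sets of 15 members were −0.51, −0.37, −0.45, −0.40 and −0.46, so none of these sets was near 0. The edges were not sharp. Before the run, the 10 nearest tested genes had a B21 median of −0.45, the gene next to it, NBEA, lay at −0.76 and USPL1 at −0.71, while HSPH1 lay at 0.13. After the run, NDFIP2 lay at −0.10 and SPRY2, a listed CIC target, at 0.19, but GPC6 at −0.71, DZIP1 at −0.82, UGGT2 at −0.95 and HS6ST3 at −1.06 followed. The 10 nearest genes after the run had a median of −0.51, as low as that of the run.

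By the same name rule, 6 tested genes of the chromosome outside the run were left out. Over the 39 kept before the run, the B21 median was −0.20 against parental and −0.03 against N4. Over the 45 kept after it, the medians were −0.26 and −0.30. The lines differed after the run: N4 was at 0.01 and A10 at 0.21 from parental, N8 at −0.24 and A30 at −0.22. Chromosome 13 as a whole (170 tested genes) had the lowest B21 median of 23 chromosomes, −0.34, followed by chromosome 5 at −0.08. The 75 members are among these 170 genes, so the choice of the run favours this rank and nothing is read from it. Against parental, chromosome 13 was also the lowest in N4 (−0.12) and N8 (−0.23). It was not the lowest in A10 (−0.06) or A30 (−0.19), where chromosome 4 was lower (−0.12 and −0.45). Genes with low B21 signals were thus also found on both sides of the run.

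The other 4 lines were also low over the run against parental. The medians over the members were −0.17 in N4, −0.23 in N8, −0.12 in A10 and −0.23 in A30, against −0.01 to 0.00 over all genes. On the side before the run, this was not particular to it. There the median of 11 neighbouring genes was below parental at every position in these 4 lines. Windows next to the run also held members. Centred on GTF3A, for example, the median was −0.20 in N4, −0.26 in N8, −0.19 in A10 and −0.19 in A30. After the run, as given above, the medians of N8 and A30 were also below parental, whereas those of N4 and A10 were not. The mean was below parental for 70 members in N4 (53.9% of all genes), 69 in N8 (49%), 57 in A10 (53.1%) and 62 in A30 (48.8%). With limma over all genes, 2 of 75 members fell in N4 (0.341% of all genes), 25 in N8 (7.03%), 5 in A10 (3.18%) and 35 in A30 (14.6%), and 0 rose with limma in any of these lines (0.206%, 7.67%, 3.38% and 10.5% of all genes). At an unadjusted p under 0.05, 30, 42, 23 and 44 members were lower in N4, N8, A10 and A30 (7.36%, 14.7%, 11.7% and 20.2% of all genes) and 1, 0, 1 and 3 higher (5.81%, 15.1%, 9.66% and 16.7%). In 1 of the 25 members called in N8 and 4 of the 35 in A30, the lower line was wholly below 5.6. Without overlap of the arrays, 35, 44, 22 and 40 members lay below parental in N4, N8, A10 and A30 (12.3%, 16.7%, 12.7% and 22.1% of all genes) and 1, 0, 0 and 4 above it (8.63%, 16.6%, 10.7% and 17.7%). These comparisons share the 3 parental arrays with each other and with the choice of the run, so they are not independent of it. The F test for differences among the 5 lines other than B21 passed for 44 members (40.8% of all genes).

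In N4, RFXAP fell by 0.49 ± 0.10 (SE, limma adjusted p = 0.0341) and AKAP11, an anchoring protein gene for protein kinase A, by 0.34 ± 0.07 (0.0418). Both calls ended without any 1 of the 3 parental or 3 N4 arrays, where the count was 0, and RFXAP then had an adjusted p up to 0.175. The AKAP11 call was lost in 13 of the 18 fits without 1 array (adjusted p up to 0.18). The N4 count was 5 when A10 replicate 1 was left out, 6 when A30 replicate 2 was and 4 when A30 replicate 3 was. With the replicate number as a block, 9 members fell in N4 (1.06% of all genes) and 0 rose with limma (0.671%). In N8, CCDC169-SOHLH2 fell by 0.83 ± 0.11, PROSER1 by 0.40 ± 0.07 and DACH1 by 0.73 ± 0.13 (limma adjusted p = 0.00012, 0.00087 and 0.00138). In A10, TRIM13 fell by 0.25 ± 0.06, MED4 by 0.38 ± 0.09 and CCDC169-SOHLH2 by 0.40 ± 0.11 (limma adjusted p = 0.0129, 0.0193 and 0.0316), and DACH1 and LACC1 also passed, LACC1 in 2 of the 18 fits without 1 array (adjusted p up to 0.223 in the others). The N8 arrays of CCDC169-SOHLH2 were all below 5.6, as were its A30 and B21 arrays, so it passed the filter through the lines in which it is high and the size of its fall rests on a level not separated from background. The A10 count rose to 13 when its replicate 1 was left out. It was 0 when A10 replicate 2 was left out and 1 when A10 replicate 3 was. With 1 parental array left out it was 2 (replicate 1), 3 (replicate 2) or 0 (replicate 3). Shares of all genes were not taken for the fits without 1 array. Their counts show only how the calls depended on single arrays.

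In A30, SERTM1, a small membrane protein gene, fell by 1.02 ± 0.10 (limma adjusted p = 2.56e-06), CCDC169-SOHLH2 by 1.00 ± 0.11 (7.31e-06) and RBM26 by 0.55 ± 0.08 (0.000131). SERTM1 was at 6.32, 6.48 and 6.48 in the parental cells, 5.39, 5.44 and 5.40 in A30 and 5.76, 5.56 and 5.80 in B21, so that A30 was lowest and did not overlap B21. All A30 arrays of SERTM1 lie below 5.6, so the size of its fall has the same limit. SERTM1 and CCDC169-SOHLH2 also had the largest ranges of line means among the 5 lines other than B21, 1.05 and 1.00, followed by KCNRG (0.87), DCLK1 and KBTBD7 (0.74 each). The low end of the first 3 of these ranges is below 5.6, and KCNRG exceeded 5.6 on 6 arrays only, those of parental and A10. DCLK1 was high in A30 (6.50, 6.40 and 6.65) and low in N8 (6.02, 5.71 and 5.59).

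With N4 as the reference, a comparison added after the data were seen, fewer members stood out. These differences hold no parental and no B21 value, but their spread was estimated on all 18 arrays. The medians over the members were −0.07 in N8, 0.08 in A10 and −0.04 in A30. The mean was below that of N4 for 51 members in N8 (48% of all genes), 27 in A10 (50%) and 43 in A30 (47.7%). In N8, 6 members fell (5.35% of all genes) and 0 rose with limma (8.56%), with 1 higher at an unadjusted p under 0.05 (15.8%). In A10, 0 fell with limma (2.95%), with 6 lower at an unadjusted p under 0.05 (9.87%), and 4 rose (3.76%): KCNRG by 0.71 ± 0.16, RBM26-AS1 by 0.47 ± 0.11, DIAPH3 by 0.38 ± 0.09 and RB1 (limma adjusted p = 0.0109, 0.0144, 0.0203 and 0.043). All N4 arrays of KCNRG were below 5.6, and it passed the filter only through the parental and A10 arrays, where it is high. Nothing is therefore read from its call, and the size of its rise rests on a level not separated from background. Apart from KCNRG, 3 members rose. In 1 of the 6 members called in N8 and 3 of the 18 in A30, a line was likewise wholly at or below 5.6. With the replicate block 7 members rose in A10 (6.26% of all genes) and 1 fell (4.9%). The A10 count was 8, 1 and 0 when A10 replicate 1, 2 or 3 was left out and 2 without replicate 2 or 3 of N4. The N8 count was 2 without replicate 3 of N4 and 3 without replicate 1 or 3 of N8. For these fits too, shares of all genes were not taken, so the counts show only how the calls depended on single arrays. In A30, 14 fell (12%) and 4 rose (10.6%), with SERTM1 again at the smallest p (−1.05 ± 0.10, limma adjusted p = 2.33e-06), and 10 passed without replicate 2 of N4. The shares of members that fell are nearer to those of all genes than they are against parental. The F test among N4, N8, A10 and A30 passed for 27 members (38.2% of all genes).

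**Figure D5:**
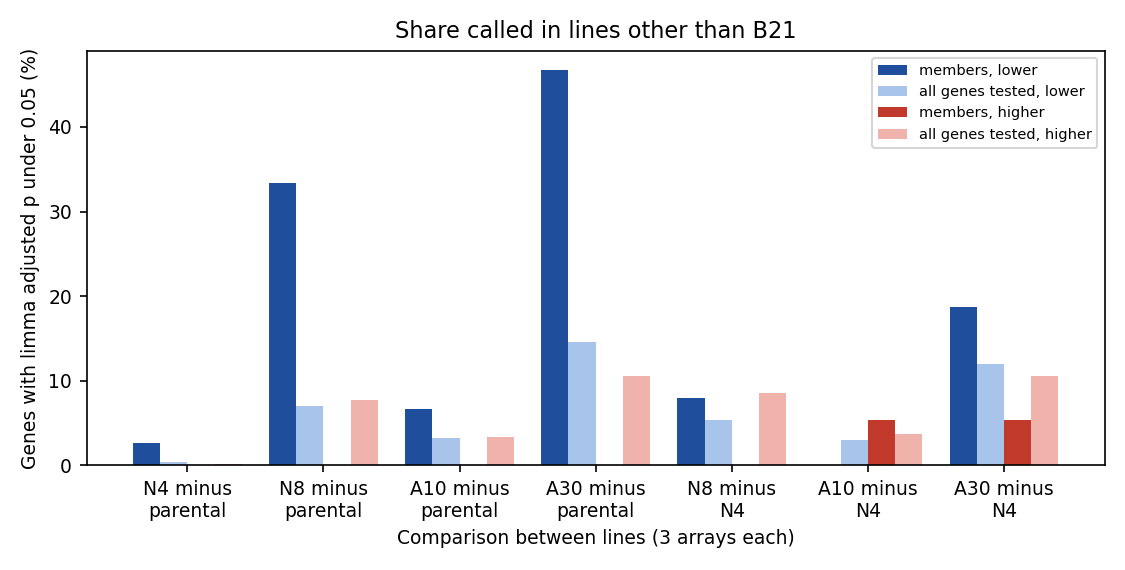
Bars give the percentage of the 75 members and of all 9686 genes with a limma adjusted p under 0.05, lower or higher, for each comparison of 2 lines with 3 arrays each. Against parental the members were called lower more often than all genes in N4, N8, A10 and A30, and against N4 the gap was smaller or absent.

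Because RB1, FOXO1 and subunits of several complexes lie in the run, their pathway partners on other chromosomes were examined in B21 against parental, where 5.19% of genes off chromosome 13 fell and 6.77% rose. Of 66 listed genes of the RB and E2F network, 42 were tested: 1 rose and 4 fell, with a median of −0.03. CCND1, the cyclin D1 gene that acts upstream of RB1, rose by 0.45 ± 0.09 (SE, limma adjusted p = 0.00402). EZH2, an E2F-controlled histone methyltransferase gene, fell by 0.36 ± 0.07 (0.00216), E2F3 by 0.39 ± 0.08 (0.00378), TFDP2, a partner gene of E2F, by 0.35 ± 0.10 (0.0346) and CDK4, the partner kinase of cyclin D, by 0.22 ± 0.07 (0.0479). Without any 1 of the parental arrays, or without replicate 2 or 3 of B21, 3 of these 5 passed (CCND1, EZH2 and E2F3). CDK4 was lost in 15 of the 18 fits without 1 array (adjusted p up to 0.14). With the replicate block 2 rose and 6 fell (10.2% and 8.26% of genes off chromosome 13). Against the mean of the 3 wild-type lines 6 rose and 4 fell (8.93% and 6.57%). EZH2 did not pass on that reference (−0.13, limma adjusted p = 0.116).

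Of 33 listed genes of the FOXO network, 18 were tested and 1 rose: SGK1, a kinase gene, was at 4.77 ± 0.13 (SD, n = 3) in the parental cells and 5.97 ± 0.21 in B21, a rise of 1.20 ± 0.12 (SE, limma adjusted p = 5.51e-06). The parental level of SGK1 is below the filter value, which the gene passed through the lines in which it is high, so the size of its rise rests on a level not separated from background. With the replicate block 2 of these genes passed, and 2 without replicate 2 of parental or replicate 1 of A10. No FOXO network gene fell with limma, and 2 were lower at an unadjusted p under 0.05 (11.9% of genes off chromosome 13).

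Of 115 listed partners of complexes with a subunit in or near the run, 81 were tested, and 4 rose and 8 fell, with a median of −0.02. Among 11 other exosome genes 3 fell: EXOSC9 by 0.36 ± 0.09 (limma adjusted p = 0.0137), EXOSC2 by 0.24 ± 0.06 (0.0182) and EXOSC6 by 0.24 ± 0.07 (0.0378). Among 5 m6A writer genes WTAP fell by 0.39 ± 0.07 (0.000783) and RBM15 by 0.28 ± 0.09 (0.0408). Among 6 other COG genes COG8 and COG2 fell by 0.26 ± 0.06 (0.00912) and 0.24 ± 0.07 (0.0362). Of 22 other Mediator genes 2 rose, MED29 and MED19, and 0 fell with limma (2 at an unadjusted p under 0.05), and of 12 SAGA genes KAT2A rose and TADA1 fell by 0.34 ± 0.07 (0.00391). PLK1, a mitotic kinase gene, rose by 0.26 ± 0.07 (0.0297). No member of the run is a SAGA subunit gene or was listed with PLK1. The SAGA and PLK1 calls thus stand beside no measured gene of the run. Of 13 Integrator genes 0 passed with limma, with 2 lower and 1 higher at an unadjusted p under 0.05 (11.9% and 14% of genes off chromosome 13). Against the mean of the 3 wild-type lines 6 of the 12 calls were lost: EXOSC9 (limma adjusted p = 0.0507), EXOSC2 (0.158), RBM15 (0.084), COG2 (0.0886), MED19 (0.222) and KAT2A (0.815). The count over all partners, 12, was 7, 4 and 4 when B21 replicate 1, 2 or 3 was left out and 5 and 6 when parental replicate 1 or 3 was. WTAP and TADA1 passed in each of the 18 fits without 1 array.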

How the data were processed

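Values were deposited by the authors as log2 signals, with 1 value for each probe set on each array, made with Affymetrix Expression Console per the submitters' processing notes, with version and settings not given in the sources used here. They were used as deposited (pseudocount 0). Of 53617 probe sets, 16098 had 1 gene symbol, 0 several and 37519 none, giving 14884 genes. Where a gene had more than 1 probe set (779 genes), that of the highest mean stood for it. The filter (above 5.6 on at least 3 arrays) left 9686 genes. Gene order came from RefSeq GRCh38.p14. Precision is limited by the number of arrays, and no detection calls entered.

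Lines were compared with limma 3.58.1 in R 4.3.3 (1 coefficient per line, all 18 arrays, two-sided, Benjamini-Hochberg over all genes, calls at an adjusted p under 0.05) and checked on simulated data. Errors of differences are limma standard errors. Deviations of same-numbered arrays from their line means correlated at 0.1001 to 0.347 (N4), 0.173 to 0.354 (N8) and 0.1445 to 0.216 (B21) with parental. With N4 they correlated at 0.173 to 0.514 (N8) and 0.118 to 0.35 (A10). For A30 the range was 0.0006 to 0.299 with parental and −0.0037 to 0.1995 with N4. The main fits ignored this pairing by replicate number, and only the fits named as having the replicate block used it.

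The members, gene lists and comparisons were chosen with earlier results of these data known. Genes named are the markers, the end genes, the 8 lowest and 8 highest in B21, the 5 brightest, the 5 with the largest range in the other lines, the 3 smallest p per line, members of role lists and up to 6 passing genes per list off the chromosome. Of marker lists, 2 of 3 fibroblast, 1 of 3 leukocyte and 2 of 3 hepatocyte genes with a symbol passed the filter. Plots used matplotlib 3.10.9, with pandas 2.3.3 and numpy 2.4.6 for tables.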

Additional observations from a re-analysis of the deposited data

How the results depend on the processing

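The B21 median over the run, whose direction the choice of the run fixes, was −0.34 with no filter, −0.30, −0.27 and −0.17 against the 3 wild-type lines, N4 and N8, and −0.46 to −0.41 without any 1 array. All B21 arrays lay below all reference arrays in 60 to 63 members without 1 array, 32 against the 3 wild-type lines and 37 against N8. The same shares over all genes were not taken for these settings. The choice of the run favours these counts, so nothing is read from them. Counts of members called in other lines moved more. Beyond those given above, shares of all genes were not taken at these settings. The counts therefore show how the calls moved, not whether the members stand out from all genes. At an adjusted p under 0.01 they were 0 in N4, 14 in N8, 0 in A10 and 23 in A30, 25 by the F test, and 2, 0 and 10 in N8, A10 and A30 against N4. At that threshold 3 genes of the RB and E2F network and 3 partners passed. With no filter the counts were 0 in N4, 2 in A10 and 10 in A30 against N4, 3 in the RB and E2F network and 5 partners. With the replicate block they were 9 in N4, 11 in A10, 8 in A10 against N4, 8 in the RB and E2F network and 2 in the FOXO network, and the block ended no call of a named gene. Same-numbered A10 and parental arrays do not all deviate together (0.0359 to 0.324). Against the 3 wild-type lines 10 genes of the RB and E2F network passed. The FOXO count was 0 with all 18 arrays above 5.6 and 2 with quantile normalisation, and the A10 count 3 with equal array medians and 8 with a trended, robust variance. With replicates 2 and 3 alone, chosen after seeing the data, the counts were 12 in A10, 9 in A10 against N4 and 3 in the FOXO network. Without any 1 array the counts ran from 0 to 6 in N4, 17 to 30 in N8, 0 to 13 in A10, 26 to 35 in A30, 37 to 45 by the F test, 23 to 28 by the F test without parental, 2 to 9, 0 to 8 and 10 to 19 in N8, A10 and A30 against N4, 3 to 5 in the RB and E2F network, 1 to 2 in the FOXO network and 4 to 14 among partners. The cause of these shifts was not tested. No call of a named gene changed sign in these fits. Against N4 in place of parental, the B21 difference had the opposite sign in 7 of 75 members, among them RGCC (0.22), RBM26-AS1 (0.13), OBI1 (0.03) and KCTD12 (−0.30). Dim members such as RCBTB2 and MAB21L1 lie near the filter value, where signal over background is unknown.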
